A study of Mus musculus with 13 samples.

Results

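The vessel miRNAs described here were 4 of the 1079 mouse miRNAs on the array, chosen by name. mmu-miR-143-3p and mmu-miR-145-5p form a mural pair, named after the smooth muscle cells and pericytes that wrap vessels. mmu-miR-126-3p and mmu-miR-126-5p, the arms of 1 hairpin, form a pair called endothelial here, after the cells that line vessels. These names are labels, and miR-126-3p varied between tumors most like miRNAs of blood cells, as given below. Levels were measured in 13 subcutaneous flank tumors, 7 from mice fed curcumin and 6 from control mice. All were male C57BL/6 mice, whose age was not given in the sources used here. Each flank had received 100000 B78H1 cells, an amelanotic melanoma line cloned from B16 cells and lacking Tap-2 and MHC-I, in a host with intact immunity. The curcumin group ate standard chow with 4% curcumin, the control group the same batch of chow without it, both from 14 days before injection until the tumors were taken on day 28. RNA of each tumor was hybridized to 1 single-color array, and which mouse or flank it came from was not given, so p-values measure the spread between these 13 tumors.

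In vessels, miR-143 and miR-145 are made from 1 transcription unit that is active in differentiated smooth muscle cells and pericytes, and they are known for keeping these cells in their contractile state. miR-126 lies in an intron of Egfl7, a gene of endothelial cells, and its 3p arm strengthens signaling by vascular endothelial growth factor through repression of inhibitors such as Spred1. In a tumor, pericytes cover and steady new capillaries, so the balance of mural and endothelial cells is a common description of vessel maturity. In whole tumors, fewer cells of a type and less RNA per cell cannot be told apart. Vessels were not counted here. The paper, which stained microvessels for an endothelial marker, reports no significant difference in their density between diets. It also reports smaller tumors with curcumin at day 28. In RefSeq (GRCm38.p6), the genes of miR-143 and miR-145, Mir143 and Mir145a, overlapped the long non-coding RNA gene Carmn, and Mir126a overlapped Egfl7 and, on the other strand, Mir126b.

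The 3p arm of miR-126 carried the largest difference in well-measured signal among the 4 miRNAs, and its sequence is shown for that reason. RefSeq names it miR-126a-3p and places it at chr2:26591402-26591423 on the plus strand of GRCm38.p6. The seed, bases 2 to 8, is in capitals.

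mmu-miR-126a-3p: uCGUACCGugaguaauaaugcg

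Of 1679 mature mouse miRNA names in the table, this was the only one with that seed. The hairpin from which both arms are cut lies at chr2:26591357-26591429, and the 3p arm is in capitals.

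Mir126a hairpin: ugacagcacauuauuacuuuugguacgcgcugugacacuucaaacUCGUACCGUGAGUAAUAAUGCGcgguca

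The arrays differed in overall brightness. Their summed miRNA signal ranged from 114095 in curcumin tumor 5 to 281508 in curcumin tumor 2, and 272 to 412 miRNAs were called detected, fewest in curcumin 5 and most in control 5. Signals were therefore quantile normalized and put on the log2 scale, on which 1 unit is a doubling. Position on the slide ran with diet, controls in row 1 and curcumin tumors in row 2, so an effect of position cannot be told apart from one of diet. Arrays came from 2 slides, each holding both diets, and values within each slide are given below. With limma and Benjamini-Hochberg adjustment over all 1079 miRNAs, 171 passed an adjusted p of 0.05, which is 15.8%. Of these, 90 were higher in curcumin tumors (8.34% of all) and 81 lower (7.51%). With no normalization between arrays 10 were higher and 39 lower, and with each array divided by its 75th percentile over all miRNAs 73 were higher and 32 lower. Of the 4 vessel miRNAs, 0 passed. Unadjusted limma p-values below 0.05 were found for both arms of miR-126, and for neither mural miRNA. Among the 243 miRNAs detected on all arrays, 101 passed (41.6%). The 171 also include miRNAs called detected on no array, whose fitted differences depend on the floor given to signals at or below 0.

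The endothelial miR-126-3p was measured with every replicate spot of both of its probes well above background on all arrays. In control tumors its log2 signal was 7.07 at the lowest, 7.44 at the median and 8.11 at the highest. In curcumin tumors it was 7.97 at the lowest, 8.30 at the median and 9.66 at the highest. All 7 curcumin tumors lay above the control median and 4 lay above the highest control, but controls 2 and 6 overlapped with the curcumin group. The means were 8.40 ± 0.59 (SD, n = 7) with curcumin and 7.56 ± 0.41 (SD, n = 6) without. The log2 difference was 0.83 (SE 0.28, 95% interval 0.22 to 1.45), a 1.78-fold higher signal with an interval of 1.16 to 2.74. The limma p was 0.0126 and the adjusted p 0.0647, so the difference did not pass across the array. The exact two-sided permutation test of this 1 miRNA over 1716 splits of the tumors gave p = 0.00932. The highest value was that of curcumin tumor 7, and without it the difference was 0.62, with a limma adjusted p of 0.0471 beside a background of 14.4% of miRNAs called. The difference was 0.44 on slide 1 (3 curcumin, 2 control tumors) and 1.104 on slide 2 (4 and 4).

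Whether miR-126-3p counted as changed depended on the processing, although it was higher with curcumin in all 29 alternatives. It passed with the authors' deposited log2 values (difference 0.82, limma adjusted p = 0.0384), where 20.9% of all miRNAs passed. It passed when each array was divided by its own 75th percentile over all miRNAs (1.07, limma adjusted p = 0.0381, background 9.73%). It also passed when testing was limited to miRNAs called detected throughout at least 1 diet group (limma adjusted p = 0.0201, background 53.9%). The methods' t-test was run on the values normalized here, with adjustment over 681 miRNAs. Its adjusted p was 0.0451 (background 31.7%), and that of its unequal-variance form 0.0458 (background 28.3%). The limma adjusted p was 0.316 with no normalization between arrays, where the difference of miR-126-3p was 0.85. Its call thus sat at the threshold, and its size stayed between 0.44 and 1.104.

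The other arm, miR-126-5p, was close to the background of the array. It was called detected in 5 of the 7 tumors with curcumin, all but 3 and 5, and in control 6 alone among the 6 controls. The log2 signal in control tumors was 0.46 at the lowest, 1.51 at the median and 2.20 at the highest, and in curcumin tumors 1.83, 2.32 and 3.62. All 7 curcumin tumors lay above the control median, with the groups overlapping between 1.83 and 2.20. The means were 2.45 ± 0.61 (SD, n = 7) and 1.49 ± 0.61 (SD, n = 6). The log2 difference of 0.96 (SE 0.34, 95% interval 0.22 to 1.69) had a limma adjusted p of 0.0758 and, for this miRNA alone, an exact permutation p of 0.0117. The difference was positive on both slides, 0.55 and 1.22. Its size varied with the processing, and was 0.060 after normexp correction, 0.40 in the deposited values and 3.13 with the scanner software's own miRNA signal. The normexp correction used an offset of 50, and the half-width of the 95% interval fell with it from 0.735 to 0.072. With the software's signal the half-width was 3.13. The adjusted p was above 0.05 in all 28 alternatives that could be run.

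The mural miR-143-3p, which holds smooth muscle cells in the contractile state together with miR-145, was detected in all 13 tumors. Its log2 signal in control tumors was 5.34 at the lowest, 6.23 at the median and 6.42 at the highest. In curcumin tumors it was 6.01, 6.26 and 6.59. The groups overlapped, with 3 curcumin tumors above the highest control and 1 control below the lowest curcumin tumor. The means were 6.31 ± 0.24 (SD, n = 7) and 6.12 ± 0.40 (SD, n = 6). The log2 difference of 0.20 (SE 0.17, 95% interval -0.19 to 0.58) had a limma adjusted p of 0.687 and an exact permutation p of 0.324. The interval includes no change and leaves room for an increase of up to 1.49-fold. The difference was -0.09 on slide 1 and 0.35 on slide 2.

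The lowest value, 5.34, belonged to control tumor 5, the array with the most miRNAs detected. Before scaling, its miR-143-3p signal of 73.1 was the second highest of the 6 controls. Without control 5 and curcumin 7 together, the difference in miR-143-3p was -0.01 (limma adjusted p = 1.0).

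miR-145-5p, which promotes the contractile program by repressing Klf4 and Klf5, was also detected in all 13 tumors but at dimmer probes. The log2 signal was 2.58, 4.02 and 4.19 (lowest, median, highest) in control tumors and 3.02, 3.84 and 4.02 in curcumin tumors. Every curcumin value lay below the control median, yet the low values of controls 5 and 6 brought the group means together. The means were 3.67 ± 0.36 (SD, n = 7) with curcumin and 3.72 ± 0.62 (SD, n = 6) without. The log2 difference of -0.05 (SE 0.27, 95% interval -0.65 to 0.55) had a limma adjusted p of 1.0 and an exact permutation p of 0.861. Its sign differed between slides, at -0.58 on slide 1 and 0.25 on slide 2, and the interval spans changes from 0.64-fold to 1.46-fold. On the passenger strands of these hairpins little was measurable. miR-143-5p was detected in 1 of 7 curcumin and 2 of 6 control tumors, and miR-145-3p on no array.

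**Figure D1:**
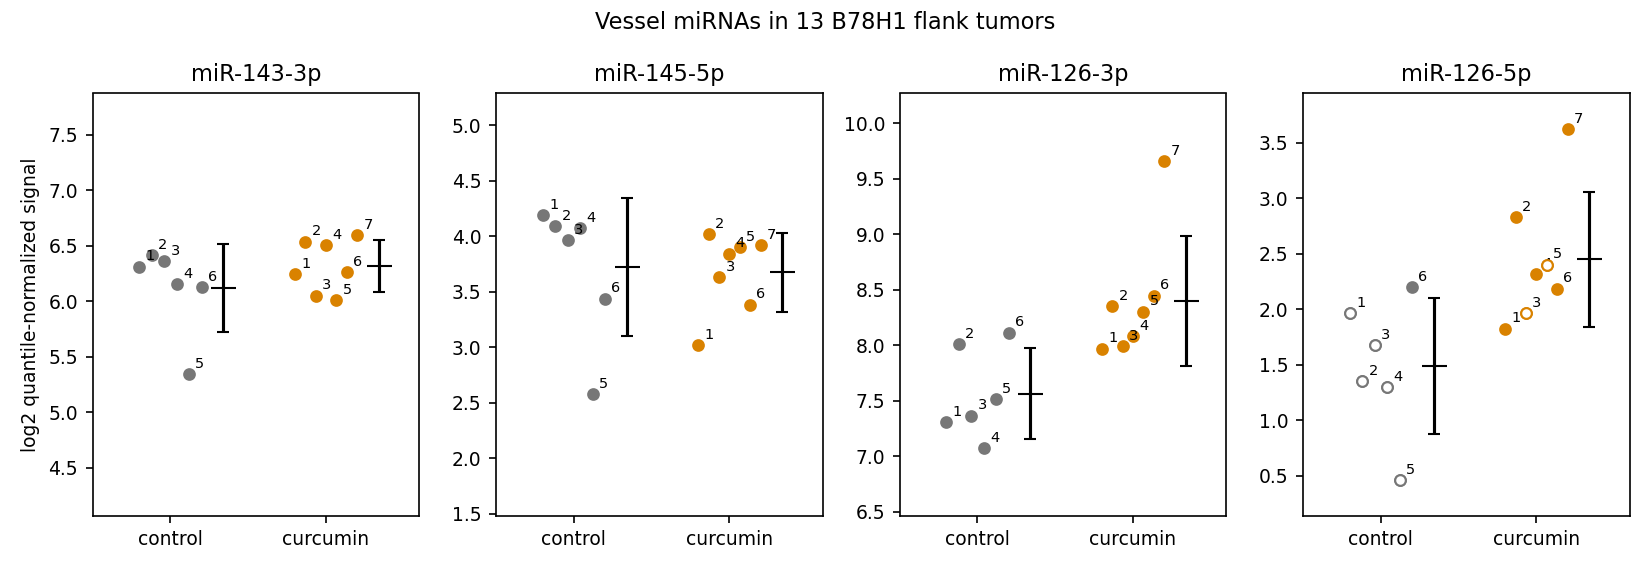
Log2 quantile-normalized signal of the 4 vessel miRNAs (y axes, each spanning the same number of log2 units) in 6 control and 7 curcumin tumors (x axes); numbers name the tumor, open points were not called detected, and bars give mean ± SD. The miR-126-3p values ran from 7.07 to 8.11 in controls and from 7.97 to 9.66 with curcumin, while the miR-143-3p and miR-145-5p groups overlapped.

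Each miRNA was read by 2 probes, which gave like differences where both were bright. The 2 probes of miR-126-3p differed between diets by 0.85 and 0.82, and those of miR-143-3p by 0.21 and 0.19. The 2 probes of miR-145-5p differed by -0.08 and -0.03, and the dimmer of them had a median of 10.0% of its spots well above background. For miR-126-5p the brighter probe supplied a median of 87.0% of the summed signal and differed by 0.98. Its second probe was at or below 0 on 2 arrays and never had over 5.0% of its spots well above background.

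The question of a shift between mural and endothelial signal was addressed within each tumor, by subtracting the log2 signal of an endothelial miRNA from that of a mural miRNA on the same array. Probes differ in brightness, so the value itself has no reading, only its difference between diets. All 4 such differences were lower with curcumin, on both slides. miR-143-3p minus miR-126-3p was -1.44 ± 0.55 (SD, n = 6) in controls and -2.08 ± 0.50 (SD, n = 7) with curcumin, a change of -0.64 (95% interval -1.3 to 0.01). The exact permutation p was 0.0542, or 0.0813 after Benjamini-Hochberg adjustment over the 6 pairs of miRNAs compared. miR-145-5p minus miR-126-3p changed by -0.88 (95% interval -1.75 to -0.03), with an exact p of 0.0437 and an adjusted p of 0.0813. Against the dim miR-126-5p, miR-143-3p changed by -0.76 (exact p = 0.0117, adjusted 0.035) and miR-145-5p by -1.01 (exact p = 0.00408, adjusted 0.0245). These last 2 differences were below 0.05 after adjustment, and they rest on miR-126-5p, which was not called detected in 7 of the 13 tumors. They did not stay below 0.05 in the deposited values, at adjusted exact permutation p-values of 0.145 and 0.0548, and after normexp correction the first of them was 0.057. Within pairs, miR-143-3p minus miR-145-5p changed by 0.24 (95% interval -0.15 to 0.65, adjusted exact p = 0.241) and miR-126-3p minus miR-126-5p by -0.12 (interval -0.7 to 0.42, adjusted exact p = 0.659).

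Averaged over each pair, the mural minus endothelial score ran from -1.38 to -0.02 with curcumin (mean -0.43 ± 0.45, SD, n = 7) and from -0.37 to 0.93 in controls (mean 0.39 ± 0.49, SD, n = 6). Controls 1 to 4 lay between 0.57 and 0.93, above every curcumin tumor, and controls 5 and 6, at -0.03 and -0.37, lay among them. The score gives the dim miR-126-5p the same weight as miR-126-3p. That arm was called detected in 5 of 7 curcumin and 1 of 6 control tumors.

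Quantile normalization stretches each array by a different amount, whereas a ratio of 2 signals on 1 array needs no scaling between arrays. In the unscaled signals the ratio of miR-143-3p to miR-126-3p was 0.104 to 0.271 in the 7 curcumin tumors and 0.274 to 0.526 in the 6 controls. The groups did not overlap, although controls 5 and 6, both at 0.274, lay just above curcumin 4 at 0.271. On the log2 scale the change was -0.85 (95% interval -1.42 to -0.32), which is 0.555 of the control ratio. The exact permutation p was 0.000583, the smallest that 7 tumors against 6 allow, and 0.00175 adjusted over the 6 pairs. The log2 change was -0.68 on slide 1 and -0.99 on slide 2. For miR-145-5p over miR-126-3p the groups did not overlap either, with log2 differences of -5.80 to -4.59 in curcumin tumors and -4.44 to -3.08 in controls. That ratio changed by -1.17 (95% interval -1.79 to -0.54, adjusted exact p = 0.00175), to 0.446 of the control ratio. The ratios to miR-126-5p overlapped between diets and changed by -0.64 and -0.96 (adjusted exact p = 0.0294 for both). In the same unscaled signals miR-143-3p minus miR-145-5p rose by 0.32 (adjusted exact p = 0.0294).

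A lower ratio to miR-126-3p was not a property of the mural miRNAs alone. Of the 242 other miRNAs detected on all arrays, 72 had a lower unscaled ratio to miR-126-3p in every curcumin tumor than in every control tumor, which is 29.8%, and the 2 mural miRNAs were among those 72. Without scaling, miR-126-3p itself differed by 0.85 and miR-143-3p by less than 0.01 on the log2 scale, against a median of -0.26 over the 243 miRNAs detected on all arrays. After quantile normalization that median was -0.09. On normalized values 29 of the 243 did not overlap between diets (11.9%), and 0 of the 3 vessel miRNAs that could be counted there were among them, miR-126-5p not being detected on all arrays.

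**Figure D2:**
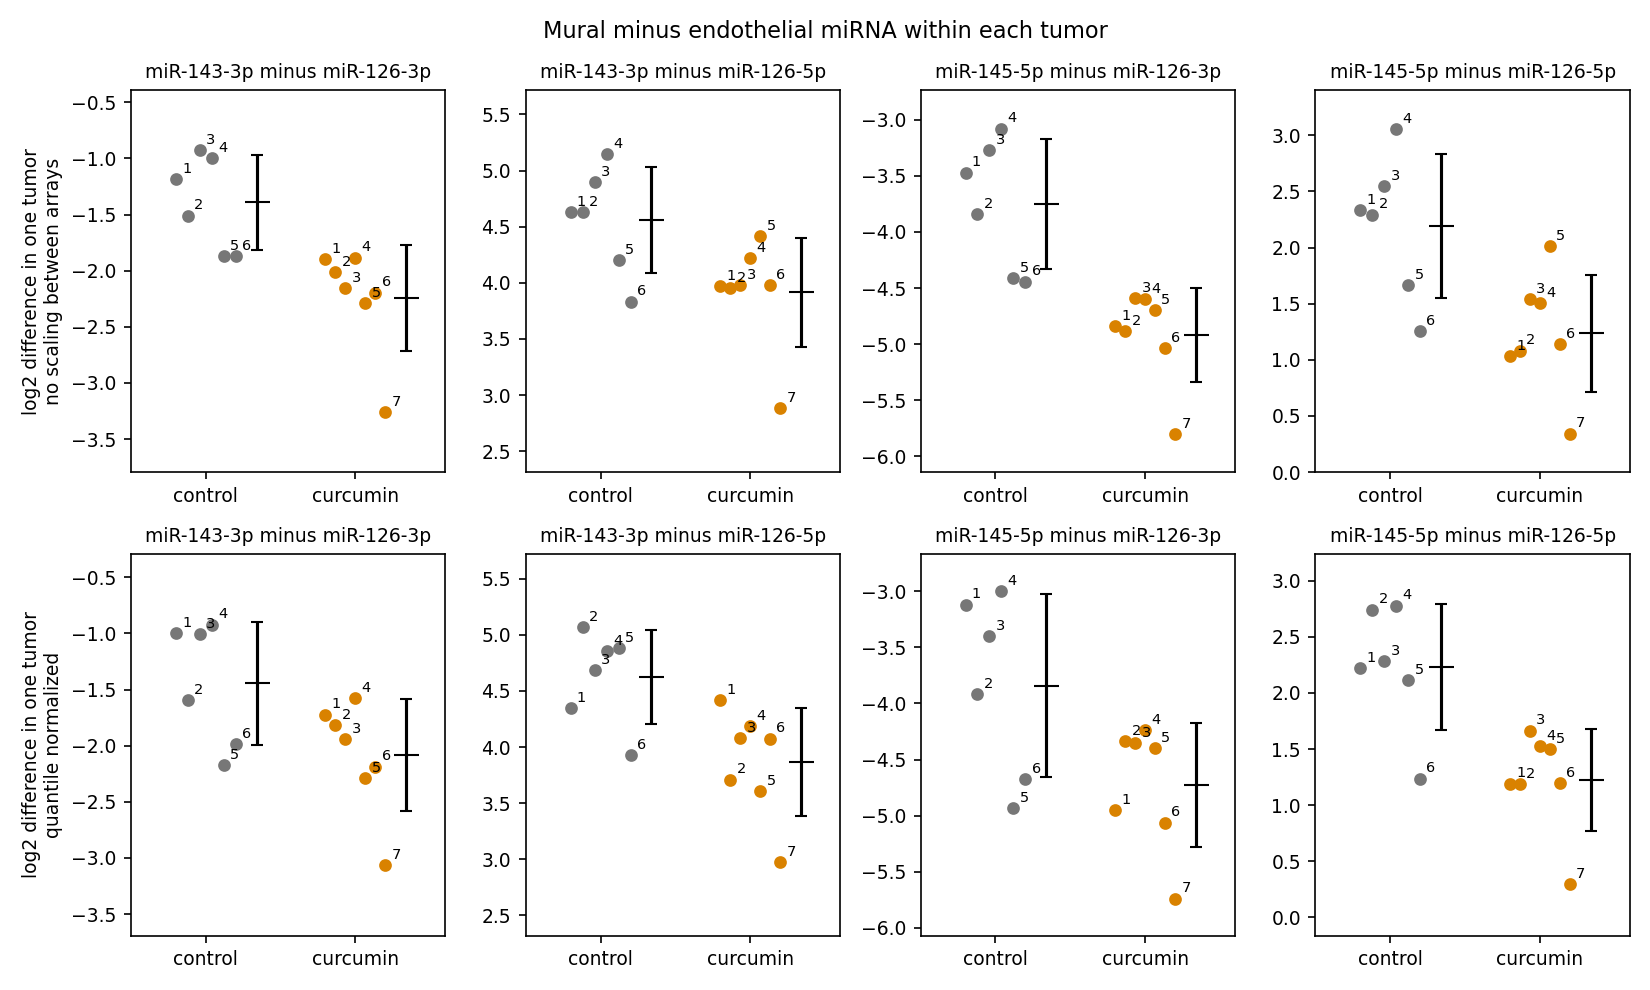
Log2 signal of a mural minus that of an endothelial miRNA on the same array (y axes), in 6 control and 7 curcumin tumors (x axes), without scaling between arrays (upper panels) and after quantile normalization (lower panels); numbers name the tumor and bars give mean ± SD. In the upper panels with miR-126-3p every curcumin tumor lay below every control, by the least margin at controls 5 and 6, and in the lower panels the groups overlapped.

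**Figure D3:**
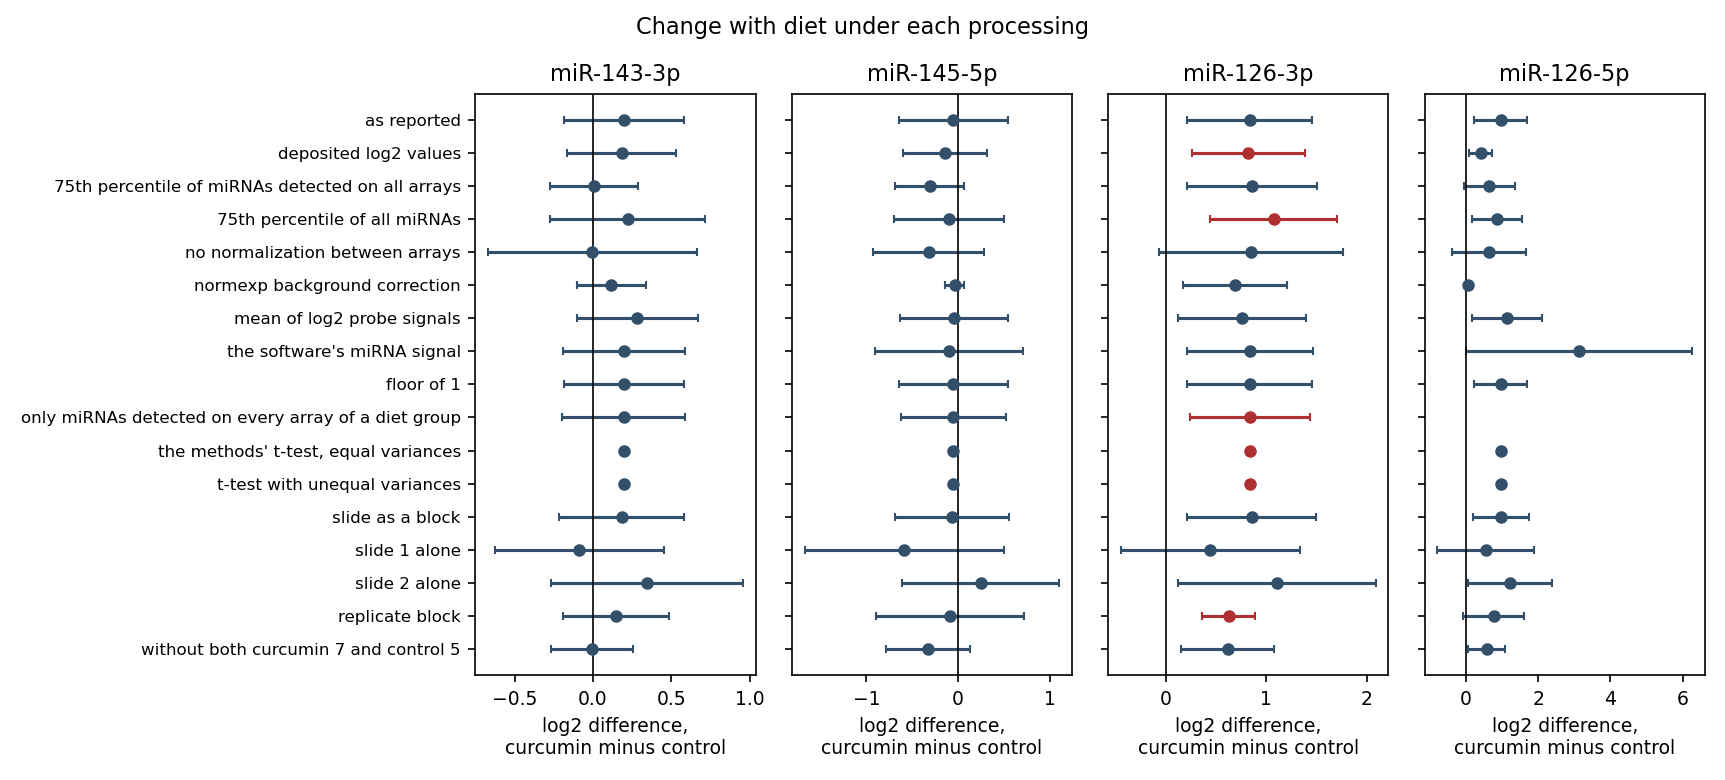
Log2 difference, curcumin minus control (x axes), of each vessel miRNA under the reported processing and its alternatives (y axis), with 95% intervals where limma gave one; red marks an adjusted p below 0.05. The miR-126-3p difference lay between 0.44 and 1.104 throughout and was red in 6 alternatives shown, and miR-143-3p and miR-145-5p lay on either side of 0.

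The miRNAs of each pair were then compared between tumors of 1 diet, where 12 relations were tested. None passed adjustment over the 12, and 2 by Pearson's r and 2 by Spearman's rho had an unadjusted exact p below 0.05. In curcumin tumors miR-126-3p and miR-126-5p had a Pearson r of 0.915 (exact permutation p = 0.0111, adjusted 0.133) and a Spearman rho of 0.786 (exact p = 0.048, adjusted 0.288). Without the 2 tumors farthest from the miR-126-3p median, curcumin 1 and 7, r was 0.504. Leaving out extreme tumors also narrows the range, so this does not show how far the relation rests on them. In control tumors miR-143-3p and miR-145-5p had an r of 0.937 (exact permutation p = 0.0278, adjusted 0.167) and a rho of 0.714 (exact p = 0.136, adjusted 0.4). Without controls 2 and 5, r was 0.557. In curcumin tumors miR-145-5p and miR-126-5p had a rho of 0.929 (exact permutation p = 0.00675, adjusted 0.081) and an r of 0.676 (exact p = 0.0903, adjusted 0.271). The mural pair in curcumin tumors had an r of 0.35 and a rho of 0.5 (exact permutation p = 0.443 and 0.267), and the difference between diets was not tested. Without scaling between arrays, where all miRNAs share the brightness of the array, 8 of the 12 relations passed adjustment. These were all 6 in curcumin tumors (adjusted exact p from 0.00397 to 0.0365), with an r of 0.954 for the mural pair and 0.974 for the miR-126 arms, and the 2 within-pair relations in controls (adjusted exact p = 0.0458 for both).

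To see which miRNAs varied most like the 4 vessel miRNAs, the deviations of the 13 tumors from their diet means were correlated across arrays, as a description. miR-126-3p was most like miR-223-3p (r = 0.929), miR-155-5p (0.844) and miR-142-3p (0.832), all of which are miRNAs of blood cells. miR-223 belongs to granulocytes and monocytes, miR-142 to blood cells of every lineage, and miR-155 to activated lymphocytes and macrophages. Without curcumin 7 and control 5 these values were 0.835, 0.756 and 0.807. The sequences are shown to let the 4 seeds, in capitals, be read side by side with that of miR-126a-3p above, and RefSeq calls the last of them miR-142a-3p.

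mmu-miR-223-3p: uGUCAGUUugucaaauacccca

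mmu-miR-155-5p: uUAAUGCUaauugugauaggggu

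mmu-miR-142a-3p: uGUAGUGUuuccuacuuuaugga

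The seeds differed from one another and from that of miR-126a-3p. All 3 blood-cell miRNAs were higher in curcumin tumors, by 1.21, 1.74 and 2.31 on the log2 scale (limma adjusted p = 0.0295, 0.00749 and 0.00407). miR-223-3p ranged from 5.83 to 7.03 in controls and from 7.07 to 9.003 with curcumin, highest in curcumin 7, which also had the highest miR-126-3p.

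The mural miRNAs had other neighbors. miR-143-3p was most like miR-181a-5p (r = 0.893), let-7a-5p (0.816) and miR-28-5p (0.81), with miR-145-5p the seventh of 242 candidates at 0.766. miR-145-5p was most like miR-361-5p (0.899), miR-28-5p (0.883) and miR-362-3p (0.881), with miR-143-3p at rank 19. miR-126-5p was most like miR-101a-3p (0.872), miR-101c (0.849) and miR-15a-5p (0.848), with its own partner arm at rank 11 (0.658). Between the mural and endothelial pairs, miR-126-3p had an r of 0.282 with miR-143-3p and 0.08 with miR-145-5p. Without curcumin 7 and control 5, miR-143-3p and miR-145-5p had an r of 0.463, and let-7a-5p and miR-143-3p one of 0.486.

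**Figure D4:**
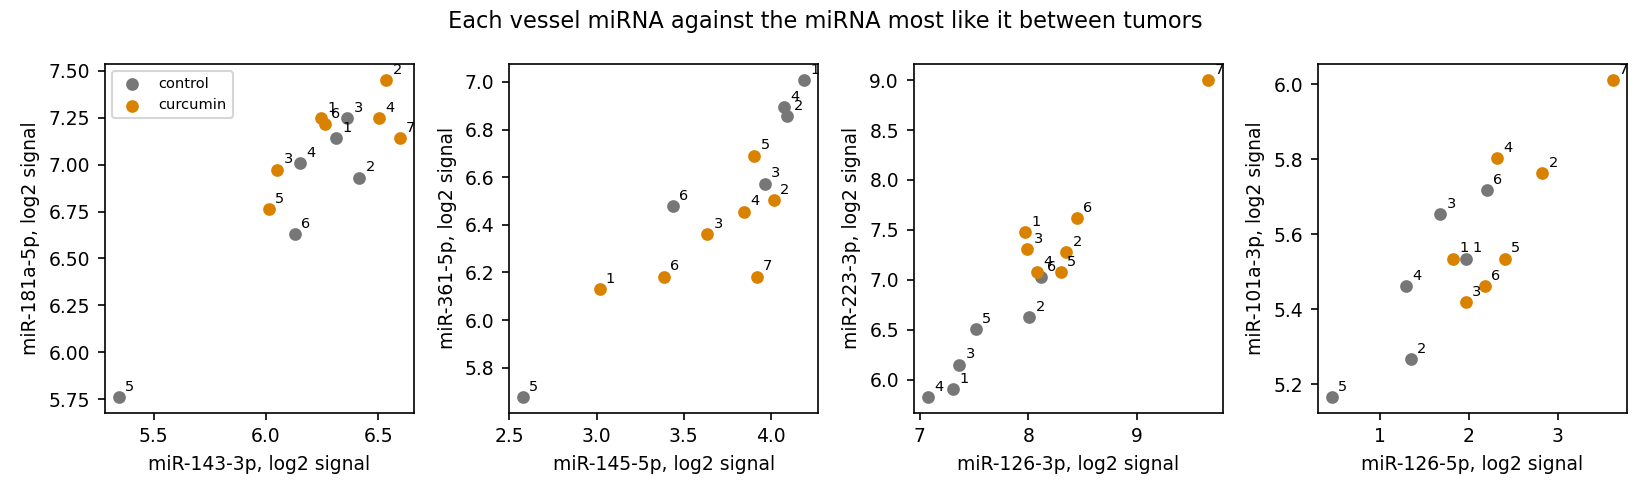
Each vessel miRNA (x axes) against the miRNA whose deviations between tumors were most like its own (y axes), both as log2 quantile-normalized signal; gray points are 6 control and orange points 7 curcumin tumors, with tumor numbers. Control 5 lay lowest in the miR-143-3p and miR-145-5p panels and curcumin 7 highest in the miR-126-3p panel.

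Lists of miRNAs of other cells were set beside these results, since flank tumors hold blood cells, fibroblasts and muscle as well as vessels. The lists were chosen with earlier results of these data known. All 6 hematopoietic miRNAs were higher in curcumin tumors at an adjusted limma p below 0.05, against 8.34% of all miRNAs. Their median log2 difference was 2.03, against -0.09 over the 243 miRNAs detected on all arrays. Over all miRNAs, 594 of which were detected on no array, the median was 0.0. Only 4 of the 6 were detected on all arrays, and the share higher among the 243 such miRNAs was 20.2%. The summed log2 level of the 6 was 8.32 to 9.08 in controls and 9.28 to 10.87 with curcumin, highest in curcumin 7. miR-150-5p, a miRNA of mature lymphocytes, was detected in 6 of 7 curcumin and 0 of 6 control tumors. Of 5 fibroblast and mesenchymal miRNAs 3 were higher, again against 8.34% of all miRNAs, such as miR-199a-3p by 2.21 (limma adjusted p = 0.00179). These 3 were the ones detected on all arrays, where the share higher was 20.2%. miR-214-5p was at -2.58 (limma adjusted p = 0.307), detected in 2 of 7 curcumin and 3 of 6 control tumors. The summed level was 7.43 to 8.99 in controls and 9.45 to 10.62 with curcumin. The part of these cells in the miR-126-3p difference was not tested. Of 2 erythroid miRNAs 0 passed, with miR-451 at -0.82 (limma adjusted p = 0.614) and detected on all arrays. Of 6 skeletal muscle miRNAs 1 was higher, miR-206-3p by 1.24, and 2 were detected on no array. Of 7 epithelial miRNAs 1 passed, miR-205-5p, and 5 were detected on no array. Of 2 melanocytic miRNAs miR-211-5p was lower by 4.76 (limma adjusted p = 0.0305). It was detected in 6 of 6 control and 4 of 7 curcumin tumors. The other arm of its hairpin, miR-211-3p, looked up after these values were seen, was detected in all 13 tumors, with means of 8.27 with curcumin and 9.10 in controls (difference -0.83, limma adjusted p = 0.0574).

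Among 26 miRNAs listed for roles in angiogenesis, 11 were higher and 6 lower with curcumin, with a median log2 difference of 0.15. Among the 21 of them detected on all arrays, 6 were higher and 6 lower, beside 20.2% higher and 21.4% lower over the 243 miRNAs detected on all arrays. Those lower included miR-18a-5p (-1.46), miR-19a-3p (-0.89), miR-20a-5p (-1.13) and miR-92a-3p (-0.53) of the cluster led by miR-17. miR-17-5p itself did not pass (-0.79, limma adjusted p = 0.102). The others lower were miR-130a-3p (-0.58) and miR-210-3p (-0.55), the miRNA induced by hypoxia. Those higher included miR-23b-3p (1.12) and miR-27b-3p (0.75). miR-24-3p and miR-27a-3p of the related clusters were at 0.40 (limma adjusted p = 0.0647) and -0.02 (1.0). Also higher were miR-322-5p (1.65) and miR-503-5p (1.52), and miR-100-5p (0.98). Among 12 miRNAs listed for the smooth muscle phenotype, 7 were higher and 0 lower, with a median of 1.74, and of the 7 detected on all arrays 4 were higher, beside the same 20.2%. The 7 higher were miR-21-5p (2.57), miR-29b-3p (1.64), miR-146a-5p (1.08), miR-26a-5p (0.90), miR-10a-5p (1.84), miR-221-3p (2.79) and miR-222-3p, each at an adjusted limma p below 0.05. miR-222-3p was detected in 2 of 6 controls and set to the floor in controls 1 and 4, so its fitted difference depends on the floor. miR-221, miR-222, miR-146a and miR-21 promote proliferation of smooth muscle cells and are made by many other cells, fibroblasts and blood cells among them. Neither miR-143-3p nor miR-145-5p, the contractile miRNAs of smooth muscle, passed in the same fit.

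**Figure D5:**
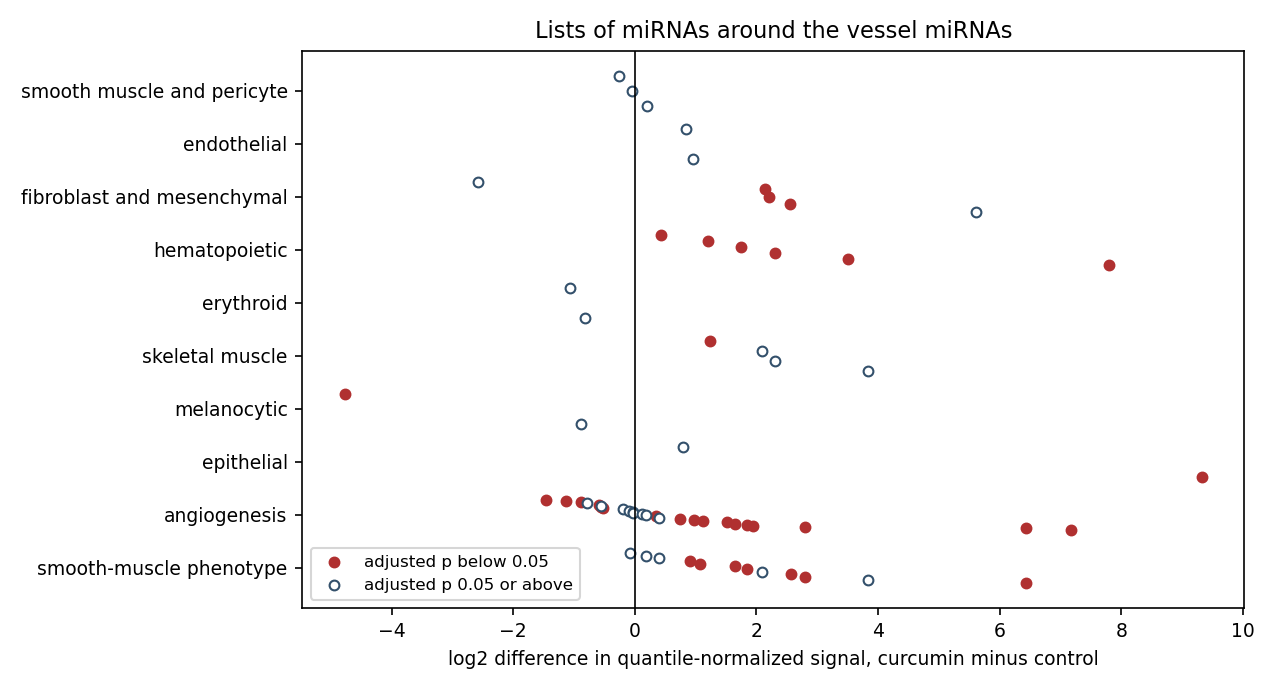
Log2 difference in quantile-normalized signal, curcumin minus control (x axis), of the detected miRNAs in each list (y axis, 1 row of points per list); filled red points had a limma adjusted p below 0.05, and the sizes of points with values at the floor, such as miR-222-3p, depend on it. The smooth muscle and pericyte list lay near 0, the endothelial list near 0.9, and all 6 hematopoietic miRNAs above 0.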

How the data were processed

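RNA of 13 flank tumors was labeled with Cy3 and hybridized to Agilent mouse miRNA arrays with 43160 spots and probes for 1079 mouse miRNAs. The authors deposited scanner output (Feature Extraction 10.10.1.1, build mm9 per the file headers), whose intensity per probe is background-subtracted by that software, and a table of log2 values. Per the study's methods, intensities were quantile normalized and log2 transformed. Here the probe intensities of a miRNA were summed, quantile normalized over 13 arrays, set to a floor of 0.007653 where at or below 0 (7215 of 14027 values) and log2 transformed. The 57 viral miRNAs were left out. No columns of unmapped samples were used.

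Diet groups were compared with limma 3.58.1 (R 4.3.3) over all 1079 miRNAs with Benjamini-Hochberg adjustment at 0.05. The test was checked on simulated data. Single miRNAs and differences between 2 miRNAs were compared by exact two-sided permutation tests (1716 splits). Intervals of such differences hold the shifts this test did not reject at 95% confidence. The number of arrays limits the precision. The 2 slides, each holding both diets, were analysed as a block and alone. Alternatives changed the scaling, the background correction, the summary of probes, the floor, the filter, the test and the arrays. normexp used the median spot signal, not the mean as planned, with an offset of 50. The 4 miRNAs and all lists were chosen with earlier results of these data known. By rule, the text names the 4 miRNAs, their hairpin partners, the 3 miRNAs most like each of them and members of the lists.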

Additional observations from a re-analysis of the deposited data

Results flagged for a closer look

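Among 20 sets of values (4 miRNAs and 6 differences between them, in each diet group), 3 held a tumor whose gap to its neighbor was beyond Dixon's critical value, where chance gives about 5 in 100. Curcumin tumor 7 had a miR-126-3p log2 signal of 9.66, and the next was 8.45, a gap of 0.717 of the group's range. Its unscaled gap was 0.404 of the range. The same tumor had a miR-145-5p minus miR-126-5p difference of 0.30, with the next at 1.19. Control tumor 5 had a miR-143-3p log2 signal of 5.34, with the next at 6.13. In the unscaled signals control 5 lay within its group, at a log2 value of 6.19 between 5.91 and 6.75.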

How the results depend on the processing

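The sign of the miR-126-3p difference was kept in 29 of 29 alternatives and that of miR-126-5p in 28 of 28. miR-126-3p passed an adjusted limma p of 0.05 with the deposited values (0.82), the 75th percentile of all miRNAs (1.07) and only miRNAs called detected throughout a diet group (0.83). It passed an adjusted t-test p of 0.05 in both t-test forms (0.83 each), where the adjustment ran over 681 miRNAs. It also passed with the replicate block (0.62, limma adjusted p = 0.0368, where 67 of all miRNAs passed). Deviations of same-numbered tumors correlated between -0.30 and 0.20. The labels do not say whether the numbers pair tumors, and these correlations cannot settle it. In each of these 6 alternatives 1 of the 4 miRNAs passed, against 0 as reported. Leaving out 1 tumor gave 0.62 to 0.95, with 0 to 1 of 4 passing. miR-143-3p changed sign with no normalization (-0.0038), on slide 1 (-0.086) and without curcumin 7 and control 5 (-0.0054), a pair chosen after seeing the data. miR-145-5p changed sign on slide 2 (0.25) and with single tumors left out (-0.28 to 0.058).

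Of all miRNAs 171 passed as reported, against 105 with the 75th percentile of all miRNAs, 49 with no normalization, 102 with the software's miRNA signal, 34 on slide 1, 3 on slide 2 and 102 to 184 with 1 tumor left out (102 without control 2, 105 without curcumin 6, 108 without control 4, 112 without curcumin 2 and 113 without curcumin 1).

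Dividing an array by a percentile does not alter a difference of 2 miRNAs on it. Both 75th-percentile scalings and no scaling are therefore 1 calculation for these differences. In it miR-143-3p minus miR-126-3p passed adjustment over 6 pairs (-0.85). On quantile-normalized values this difference ranged from -0.78 (passing, without control 5) to -0.48 with 1 tumor left out. miR-145-5p minus miR-126-3p passed in the same calculation (-1.17) and with normexp (-0.72). It ranged from -1.10 to -0.71 with 1 tumor left out, passing without control 5 or control 6. miR-143-3p minus miR-126-5p missed with deposited values (-0.22), mean probe signals (-0.85), the software's signal (-2.94), slide 1 (-0.63), slide 2 (-0.88) and without curcumin 7 and control 5 (-0.56), and changed sign with normexp (0.057). It ranged from -0.90 to -0.61, missing without curcumin 2, 5 or 7 or control 2, 3 or 4. miR-145-5p minus miR-126-5p missed with deposited values (-0.54), normexp (-0.094), the software's signal (-3.23), slide 1 (-1.13), slide 2 (-0.97) and without curcumin 7 and control 5 (-0.87). It ranged from -1.20 to -0.85, missing without curcumin 2 or 7. With 3 against 2 tumors the exact test on slide 1 cannot reach 0.05. miR-126-3p minus miR-126-5p changed sign with deposited values (0.42), normexp (0.63) and without curcumin 7 and control 5 (0.060). It also did so in the 1 calculation shared by the percentile scalings and no scaling (0.21). With 1 tumor left out it ranged from -0.27 to 0.075. The correlation of miR-145-5p with miR-126-3p in controls was 0.31 unscaled against -0.22, and 8 of 12 correlations passed adjustment unscaled against 0. The cause of these changes was not tested. Signal near background limits miR-126-5p, and 13 arrays limit every interval.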
